A study of Rattus norvegicus with 9 samples.

Results

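The collagen genes considered here are the 37 chains that remain, of 43 collagen chains among the 17588 genes measured, once the 6 chains of the cartilage collagens (Col2a1 of type II, Col9a1, Col9a2 and Col9a3 of type IX, Col11a1 and Col11a2 of type XI) are set aside. The rule goes by gene symbol and uses no measured value, but it was set with earlier results of these data known. Their messenger RNA was measured in primary chondrocytes of wild-type rats, cells released from cartilage by collagenase and grown with serum. Of the 9 libraries, 3 came from chondrocytes in routine culture (control), 3 from chondrocytes treated with interleukin-1β (IL-1β), a cytokine of joint inflammation, and 3 from chondrocytes given IL-1β that shared a transwell with dermal fibroblasts of rat skin, the chondrocytes in the lower chamber and the fibroblasts in the upper. Neither the dose and time of IL-1β nor the length of co-culture nor the age and number of the rats is stated in the sources used here. The labels do not say whether replicates were separate animals or cultures, so each p-value reflects only the scatter among libraries, which can be technical.

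A collagen molecule is a helix wound from several chains, which may be products of one gene or of several. Fibrillar collagens (types I, III and V) build the tensile fibrils of skin, bone and tendon, and rise in chondrocytes that lose their cartilage character in culture. Type VI forms beaded filaments in the thin pericellular coat around each chondrocyte. Type IV forms the sheet of basement membranes, type VIII a hexagonal lattice, type VII the anchoring fibrils below epithelia, and the FACIT collagens (fibril-associated collagens with interrupted helices) sit on the surface of fibrils. The multiplexins, types XV and XVIII, lie in and near basement membranes.

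With IL-1β the partner chains Col4a1 and Col4a2 both rose, while Col8a1 rose and its partner Col8a2 fell. The start regions of these pairs are shown for that reason, and the pairs were picked after their values were seen. Whether the layout or sequence of the start regions bears on the levels was not tested. Each window runs from 250 bases before to 50 after the RefSeq start of the gene in the rat build GRCr8, 5′ to 3′ on the strand of the gene. Col4a1 (chr16:84885347-84885646, plus strand) and Col4a2 (chr16:84885471-84885770, minus strand) lie head to head with 76 bases between their starts. Their windows share 176 bases, which are in capitals and read in opposite directions.
Col4a1: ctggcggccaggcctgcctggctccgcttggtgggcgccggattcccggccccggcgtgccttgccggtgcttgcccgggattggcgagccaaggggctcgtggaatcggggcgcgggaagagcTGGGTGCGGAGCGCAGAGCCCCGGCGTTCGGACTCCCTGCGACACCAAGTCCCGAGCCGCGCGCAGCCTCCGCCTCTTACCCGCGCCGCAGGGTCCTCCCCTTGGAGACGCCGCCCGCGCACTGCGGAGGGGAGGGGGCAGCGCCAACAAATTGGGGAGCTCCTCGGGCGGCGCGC
Col4a2: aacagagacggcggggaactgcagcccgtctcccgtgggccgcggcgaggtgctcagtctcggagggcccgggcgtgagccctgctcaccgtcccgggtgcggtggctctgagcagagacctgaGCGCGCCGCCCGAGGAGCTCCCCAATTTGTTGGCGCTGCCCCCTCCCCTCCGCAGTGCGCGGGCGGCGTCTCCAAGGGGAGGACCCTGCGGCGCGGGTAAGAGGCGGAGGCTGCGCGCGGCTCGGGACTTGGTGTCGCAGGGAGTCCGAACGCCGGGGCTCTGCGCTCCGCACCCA
Col8a1 (chr11:56246532-56246831, plus strand) and Col8a2 (chr5:143870519-143870818, plus strand) lie on different chromosomes. In their windows the capitals mark the motif GGGCGG on either strand, found 4 times in Col8a1 and 5 times in Col8a2, where a pair of matches overlap.
Col8a1: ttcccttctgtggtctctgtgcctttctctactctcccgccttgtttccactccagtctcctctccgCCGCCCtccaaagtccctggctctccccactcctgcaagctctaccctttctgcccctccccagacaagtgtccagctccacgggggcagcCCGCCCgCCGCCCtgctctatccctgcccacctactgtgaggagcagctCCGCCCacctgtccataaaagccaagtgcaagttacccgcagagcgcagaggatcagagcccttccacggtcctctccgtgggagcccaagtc
Col8a2: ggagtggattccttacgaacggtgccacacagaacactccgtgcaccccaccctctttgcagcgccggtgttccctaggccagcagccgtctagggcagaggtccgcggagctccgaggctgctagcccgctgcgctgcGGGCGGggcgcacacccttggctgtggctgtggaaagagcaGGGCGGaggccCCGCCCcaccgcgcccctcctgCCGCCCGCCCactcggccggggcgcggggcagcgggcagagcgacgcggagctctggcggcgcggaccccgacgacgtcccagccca

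Windows were at hand for 30 of the 37 chains and for 16 of the 21 that could be tested. GGGCGG, searched on both strands, was found in 11 of the 16 (68.75%) and in 33.1% of all 33469 windows. CCAAT was found in 4 (Col1a2, Col5a3, Col4a1 and Col4a2) against 37.5% of all windows, TATAAA in 1 (Col1a2) against 14.2%, TGANTCA in 1 (Col6a1) against 7.33%, and the NF-κB consensus in 0 against 5.02%. These are letters in a window and not sites of binding. The sets are unlike, since the 16 chains passed a filter on level and the 33469 windows did not. Base composition was not matched either. G and C made up 75% of the Col4a1 window, 73.7% of those of Col4a2 and Col8a2 and 62.7% of that of Col8a1. Col4a1 and Col4a2 are counted separately, although their windows share 176 bases.

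Levels are in FPKM (read fragments per length of transcript and per size of library), so chains of different length can be compared. The build to which the reads were aligned is unsettled, however, and its part in differences between chains, or in low values, was not tested. All levels of a library summed to 771058 to 832248 FPKM, lowest in the control libraries, and the absolute read depth is unknown. Means are given ± SD with n = 3 libraries. The chondrocyte label was checked against 10 chondrocyte markers, all of which reached 1 FPKM in at least 3 libraries, the filter for testing. Their summed level was 1907 to 1992 FPKM in control, 440.2 to 459.8 with IL-1β and 619 to 676 in co-culture libraries. The list includes Col2a1, Col11a1 and Col9a1, with control means of 1042, 357 and 76.1 FPKM. These are also among the cartilage chains set aside above, so the marker sum and the sum of those chains are largely the same values. The marker Matn1 was below 1 FPKM in some libraries. Skeletal muscle markers, of which 9 of 10 were above the filter and all 9 were called higher with IL-1β, that is, at an adjusted p under 0.05 in limma (Ckm passed the filter only through the groups in which it was high), summed to 184 to 190.3 FPKM in control, 403 to 425 with IL-1β and 393 to 441 in co-culture libraries. Dermal fibroblast markers summed to 612 to 623, 1538 to 1603 and 949 to 1043 FPKM in the same order, with Dpp4 and Clec3b of the 12 below 1 FPKM everywhere and 8 above the filter. Of these 8, 4 were called higher (Pdgfra, Dcn, Lum and Twist2) and 3 lower (Tbx15, Dpt and Mfap5) with IL-1β, with a median log2 difference of 0.05, and in co-culture against IL-1β 0 were higher and 3 lower (Dcn, Lum and Thy1). Of the 10 chondrocyte markers, 10 were called lower with IL-1β, and 7 were higher and 0 lower in co-culture against IL-1β. Over all tested genes 26.5% were higher and 20.2% lower with IL-1β. In co-culture against IL-1β these shares were 11.9% and 10.1%. Of 10 endothelial markers, 8 (Pecam1, Cdh5, Kdr, Tek, Tie1, Vwf, Emcn and Esam) were below 1 FPKM in every library. Macrophage (19.2 to 26.2 FPKM), osteoblast (8.90 to 17.3) and keratinocyte markers (1.19 to 2.33) summed to low levels throughout. The summed levels of the muscle and fibroblast lists thus differed between the groups, although the fibroblast markers did not all go one way, and their part in the collagen results was not tested. The fibroblast list summed to 612 to 623 FPKM already in control libraries from routine culture, so it does not single out the transwell fibroblasts. In these bulk samples fewer cells of a type and less RNA per cell cannot be told apart.

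Of the 37 chains, 16 stayed below 1 FPKM in every library. These were the fibrillar chain Col24a1, the type IV chains Col4a3, Col4a4 and Col4a6, the type VI chains Col6a5 and Col6a6, the FACIT chains Col19a1, Col20a1 and Col22a1, the transmembrane collagens Col13a1, Col17a1, Col23a1 and Col25a1, Col26a1, Col28a1, and Col10a1, the collagen of hypertrophic cartilage. The highest value among them was 0.62 FPKM, for Col17a1 in a control library. Of these, 7 were below 0.1 FPKM everywhere and 7 were listed at 0 in at least 1 library. Col23a1, for example, was listed at 0 in 1 IL-1β library and at 0.41 and 0.43 in the others, so a value of 0 is taken only as an entry listed at 0.

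**Figure D1:**
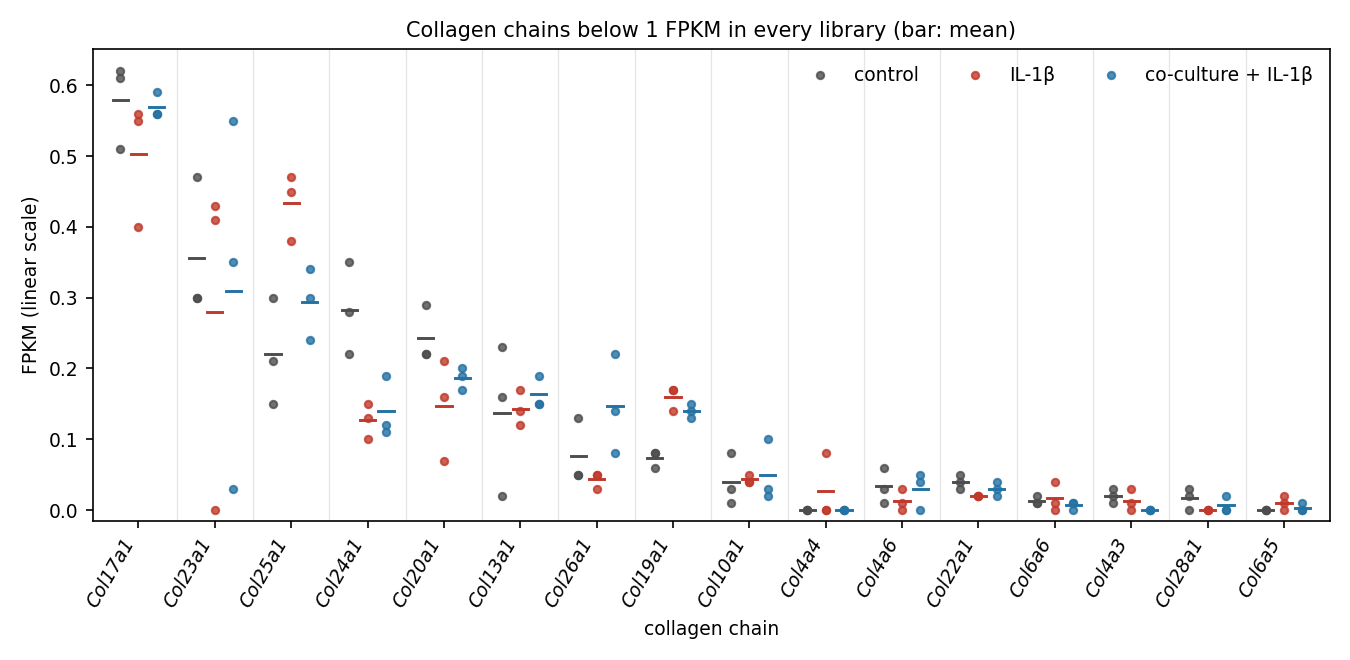
FPKM (linear axis) of the 16 collagen chains below 1 FPKM in every library, with 1 point per library, 3 libraries per group and a bar at the group mean. No point exceeds 0.62, and for most chains the groups overlap.

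The other 21 chains reached 1 FPKM in at least 3 libraries and were tested, and 20 of them were at 1 FPKM or more in all 9. Col7a1 was the exception and passed only through the groups in which it was high, so it is left out of the counts of calls below and described apart. In every control library 18 chains reached 10 FPKM and 8 reached 100 FPKM. The levels spanned a wide range. Col1a1 led in all groups, at 1973 ± 55.7 FPKM in control libraries, followed by Col3a1 (1312 ± 13.1), Col6a1 (1104 ± 17.2), Col6a2 (949 ± 10.6), Col5a2 (607 ± 3.67), Col1a2 (439 ± 35.2), Col5a1 (236 ± 5.52) and Col6a3 (134 ± 3.21). Col7a1 stood last of the 21 in each group.

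**Figure D2:**
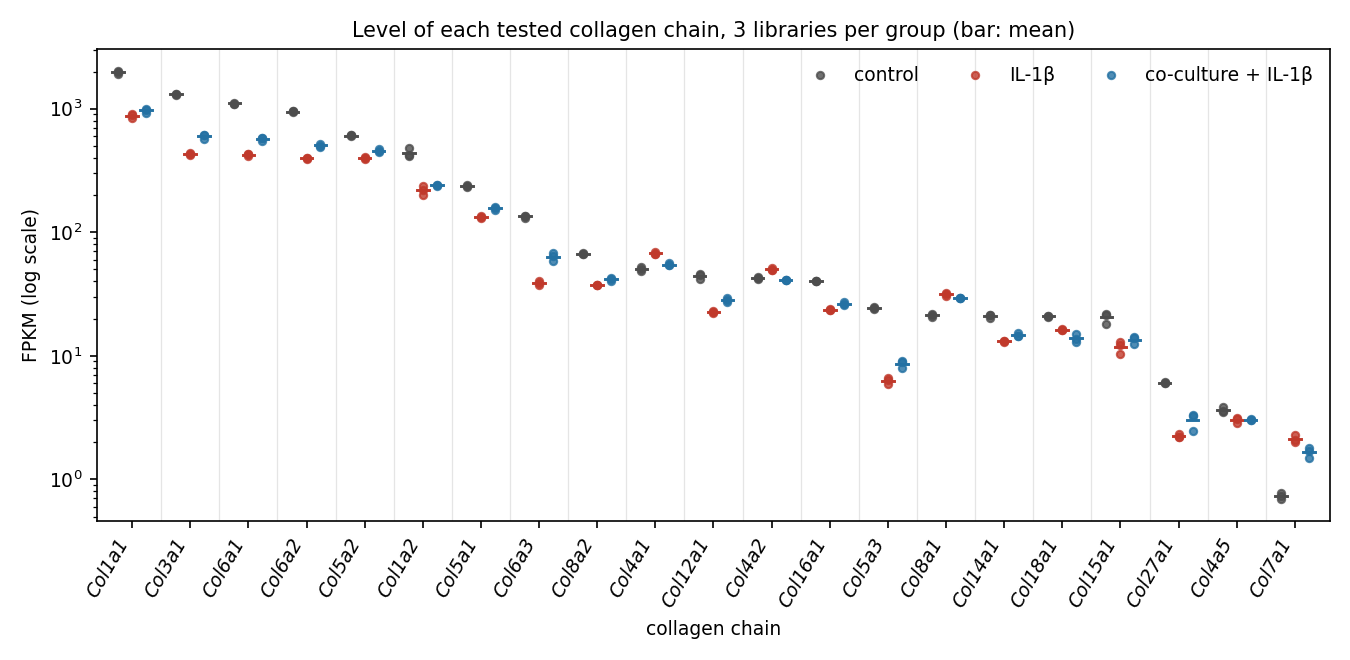
FPKM (log axis) of the 21 tested collagen chains in the order of their control mean, with 1 point per library, 3 libraries per group and a bar at the group mean. The IL-1β points lie below the control points for 17 chains and above them for Col4a1, Col4a2, Col8a1 and Col7a1. Col7a1 passed the filter only where it was high, and the share of all tested genes separated in this way was not counted.

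Summed over all 37 chains, the control libraries held 7121 ± 130.1 FPKM, the IL-1β libraries 3208 ± 78.0 and the co-culture libraries 3841 ± 111. The sum was thus 45.0% of control with IL-1β and 53.9% in co-culture, and the libraries of the groups did not overlap (exact permutation test, two-sided, p = 0.1 for each comparison, the smallest that 3 against 3 libraries can give). As a share of all FPKM the chains took 0.918 ± 0.0230%, 0.395 ± 0.0176% and 0.474 ± 0.0140%. Col1a1, Col1a2 and Col3a1 made up 52.3 ± 0.476% of the sum in control, 47.6 ± 0.713% with IL-1β and 47.0 ± 0.258% in co-culture libraries.

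Cartilage collagens stood lower relative to control. Their summed level was 1630.2 ± 36.9 FPKM in control, 369 ± 8.44 with IL-1β and 505 ± 24.4 in co-culture libraries, or 22.6% and 31.0% of control. The sum of the 37 chains was 4.37 ± 0.0299 times that of the 6 cartilage chains in control, 8.69 ± 0.0151 times with IL-1β and 7.61 ± 0.156 times in co-culture libraries. The libraries did not overlap in this ratio either (exact permutation test, two-sided, p = 0.1 in each comparison).

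How the cytokine by itself changed collagen messages was asked by setting IL-1β against control. The tested fibrillar, type VI, FACIT and multiplexin chains, Col4a5 and Col8a2 fell, and the type IV chains Col4a1 and Col4a2 and the type VIII chain Col8a1 rose. In limma on log2(FPKM + 1), 20 of the 20 chains at 1 FPKM or more in every library passed at an adjusted p under 0.05, of which 3 were higher and 17 lower. Over all 11732 tested genes 46.7% passed, 26.5% higher and 20.2% lower. Their median log2 difference was -0.82, against 0.02 over all tested genes and -1.82 for the 6 cartilage chains, all 6 of which fell (-2.62 to -1.37). In the co-culture, compared with control, 19 of the 20 chains passed, 2 higher and 17 lower, where over all tested genes 33.9% passed, 21.8% higher and 12.2% lower. The median there was -0.62, against 0.04 over all tested genes and -1.59 for the cartilage chains. Both comparisons share the control libraries.

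Stimulated chondrocytes with and without neighbouring fibroblasts were compared by setting the co-culture against the IL-1β libraries. The latter are labelled normal culture, so an effect of the fibroblasts and one of the transwell format cannot be told apart. No library came from a co-culture without IL-1β. The 3 tested type VI chains, the 3 tested FACIT chains, 6 of the 7 tested fibrillar chains and Col8a2 were higher in co-culture, and Col4a1, Col4a2 and Col18a1 were lower. Of the 20 chains 16 passed, 13 higher and 3 lower, where 22.0% of all tested genes passed, 11.9% higher and 10.1% lower. Every co-culture library lay above every IL-1β library for 13 chains and below for 4. The share of all tested genes separated in this way was not counted, so these 2 counts have no background beside them. The median log2 difference was 0.16, against 0.02 over all tested genes and 0.31 for the cartilage chains, which all rose (0.18 to 0.57). Of these, the call for Col9a3 (adjusted p = 0.0464) ended without any 1 of control replicates 1 and 2, IL-1β replicates 1 and 2 and co-culture replicates 1 and 2 (adjusted p between 0.0551 and 0.139). It also ended with no filter, with a common sum, quantile normalization, median-of-ratios scaling, no trend, only the 6 libraries compared or a replicate block (adjusted p between 0.0621 and 0.0850). This comparison and that of IL-1β with control share the IL-1β libraries.

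**Figure D3:**
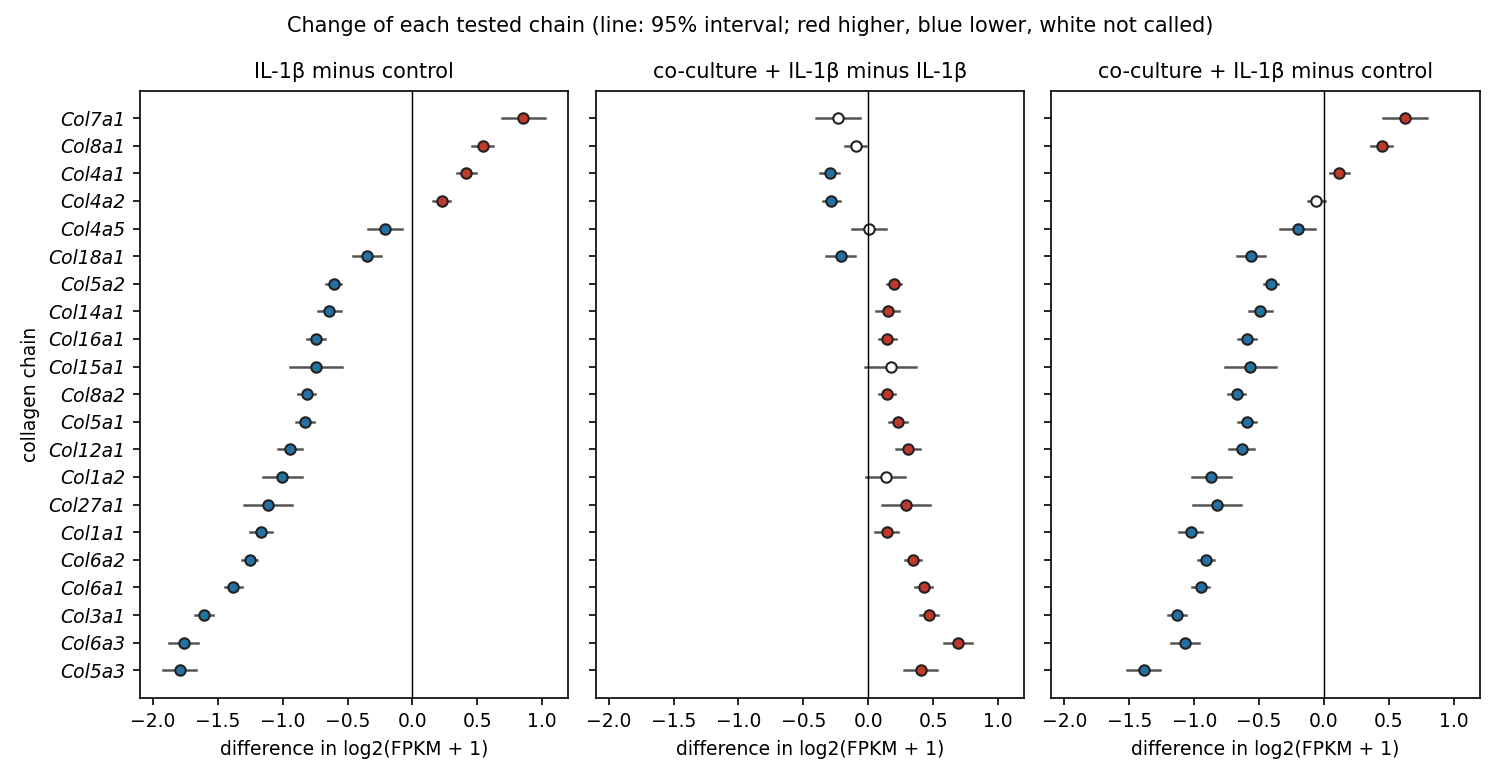
Difference in log2(FPKM + 1) of the 21 tested chains for IL-1β minus control, co-culture minus IL-1β and co-culture minus control, with 95% intervals from limma over 9 libraries. Red and blue points passed an adjusted p of 0.05 and white points did not: 0 of 21 chains are white in the first panel, 5 in the second and 1 in the third, with Col7a1, which passed the filter only where it was high, among the 21.

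Among the fibrillar collagens, Col1a1, the major chain of type I, measured 1968, 1921 and 2032 FPKM in control, 843, 883 and 906 with IL-1β and 1003, 971 and 928 in co-culture libraries. No groups overlapped, and the co-culture libraries stood just above the IL-1β libraries. The log2 difference was -1.17 ± 0.038 (SE) with IL-1β (adjusted p = 4.69e-09) and 0.14 ± 0.038 for co-culture against IL-1β (adjusted p = 0.0264). The second difference lost its call without any 1 of IL-1β replicates 1 and 2 and co-culture replicates 1 and 2 (adjusted p between 0.0549 and 0.0785), and also with no filter, quantile normalization, no trend or a replicate block (adjusted p = 0.0531, 0.0754, 0.0569 and 0.0590). Its partner chain Col1a2 measured 420.2, 418 and 479.8 FPKM in control, 199.96, 218 and 239 with IL-1β and 241, 239.7 and 239 in co-culture libraries. It fell with IL-1β by 1.00 ± 0.066 on the log2 scale (adjusted p = 1.01e-06). The IL-1β and co-culture libraries of Col1a2 overlapped, and their difference of 0.13, with a 95% interval of -0.02 to 0.28, did not pass (adjusted p = 0.189).

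Col3a1, the chain of type III collagen, which is laid down with type I in soft tissues, was one of the chains furthest apart between groups. It measured 1313, 1299 and 1325 FPKM in control, 424, 431 and 438 with IL-1β and 609, 615 and 572 in co-culture libraries. All 3 groups were separate, with co-culture between the others. It was 3.04-fold lower with IL-1β than in control (log2 difference -1.60 ± 0.031, adjusted p = 1.18e-10), and it was 1.39-fold higher in co-culture than with IL-1β alone (0.47 ± 0.031, adjusted p = 5.3e-06). Against control the co-culture level was still 2.19-fold lower (-1.13 ± 0.031, adjusted p = 3.67e-09).

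The type V chains, which join type I fibrils and limit their width, fell to different degrees. Col5a2 stood at 603 to 609 FPKM in control, 393 to 403 with IL-1β and 447 to 468 in co-culture libraries, with 65.6% of the control level left under IL-1β. Col5a1 kept 56.2% (236 ± 5.52 to 133 ± 3.34 FPKM) and stood at 156 ± 4.41 in co-culture. Col5a3, the least abundant of the chains of type V, kept 26.0%. It measured 24.7, 24.25 and 23.7 FPKM in control, 5.92, 6.60 and 6.33 with IL-1β and 9.05, 8.94 and 7.93 in co-culture libraries, so all groups were separate. Its log2 difference with IL-1β, -1.79 ± 0.057 (adjusted p = 3.67e-09), was the lowest of the 21 chains. In co-culture against IL-1β the differences were 0.20 for Col5a2, 0.23 for Col5a1 and 0.40 for Col5a3, and all passed (adjusted p = 0.000333, 0.000673 and 0.000789).

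Col27a1, a fibrillar collagen made by cartilage, measured 6.15, 5.97 and 6.02 FPKM in control, 2.22, 2.33 and 2.21 with IL-1β and 3.32, 3.23 and 2.47 in co-culture libraries. It fell 2.68-fold with IL-1β (log2 difference -1.12 ± 0.083, adjusted p = 2.35e-06). Co-culture replicate 3 stood close to the IL-1β libraries. The difference between co-culture and IL-1β, 0.29 ± 0.083 (adjusted p = 0.0306), lost its call without any 1 IL-1β library or without co-culture replicate 1 or 2 (adjusted p between 0.0590 and 0.104), and also with no filter (0.0579) or with only the 6 libraries compared (0.0719). Col24a1, the other fibrillar chain of this kind, was too low to be tested, at 0.22 to 0.35 FPKM in control, 0.1 to 0.15 with IL-1β and 0.11 to 0.19 in co-culture libraries.

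All 3 tested type VI chains fell with IL-1β and were higher in co-culture than with IL-1β alone. Col6a1 measured 1089, 1099.6 and 1123 FPKM in control, 414, 429 and 429 with IL-1β and 577, 584 and 552 in co-culture libraries. Col6a2 measured 937, 953 and 957 FPKM, then 393, 399 and 399, then 523, 504 and 491. In both chains the 3 groups were separate and the co-culture lay between the others. Col6a3, the large chain of the type VI molecule, measured 136, 131 and 136 FPKM in control, 37.4, 39.1 and 40.15 with IL-1β and 64.3, 67.6 and 58.9 in co-culture libraries. With IL-1β the log2 differences were -1.38 ± 0.029 for Col6a1, -1.26 ± 0.027 for Col6a2 and -1.76 ± 0.049 for Col6a3 (adjusted p = 2.18e-10, 2.4e-10 and 1.36e-09). In co-culture against IL-1β they were 0.43 ± 0.029, 0.35 ± 0.027 and 0.69 ± 0.049 (adjusted p = 6.89e-06, 1.74e-05 and 8.33e-06), and that of Col6a3, 1.64-fold, was the largest rise among the 21 chains. Col6a3 stood at rank 8 by mean level in control, at rank 10 in IL-1β, below Col4a1 and Col4a2, and at rank 8 in co-culture libraries. The alternative long chains Col6a5 and Col6a6 did not exceed 0.04 FPKM in any library.

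The main type IV chains were high with IL-1β. Col4a1, a chain of the common basement membrane network, measured 52.1, 48.5 and 50.8 FPKM in control, 66.9, 68.85 and 66.9 with IL-1β and 55.9, 54.4 and 54.2 in co-culture libraries. Its partner Col4a2 measured 43.5, 42.15 and 42.8 FPKM, then 49.9, 51.5 and 49.2, then 40.9, 41.3 and 40.9. For both, every IL-1β library lay above every library of the other groups. Col4a1 rose 1.34-fold with IL-1β (log2 difference 0.41 ± 0.033, adjusted p = 3.88e-06) and Col4a2 1.17-fold (0.22 ± 0.029, adjusted p = 0.000133). In co-culture both were lower than with IL-1β alone, with log2 differences of -0.30 ± 0.033 and -0.28 ± 0.029 (adjusted p = 0.000179 and 0.000104).

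Against control, Col4a1 in co-culture was 0.12 ± 0.033 higher on the log2 scale (adjusted p = 0.0207) and Col4a2 differed by -0.06, with a 95% interval of -0.12 to 0.01 (adjusted p = 0.145). Both calls depended on the scaling. With libraries rescaled to a common sum, quantile normalization or median-of-ratios scaling, Col4a1 did not pass (0.05 to 0.07; adjusted p = 0.353, 0.153 and 0.126) and Col4a2 passed as lower (-0.12 to -0.10; adjusted p = 0.0289, 0.0192 and 0.0236). Col4a1 also lost its call without control replicate 2 (adjusted p = 0.0728) or co-culture replicate 1 (adjusted p = 0.0560). These are the head-to-head genes whose shared start region is printed above. Endothelial cells are a rich source of type IV collagen. The 10 endothelial markers summed to 13.2 to 14.3 FPKM in control, 9.77 to 10.7 with IL-1β and 9.67 to 10.8 in co-culture, with 8 of them below 1 FPKM everywhere, and the tested 2, Erg and Egfl7, were called lower with IL-1β. Of these, Erg was below 1 FPKM in some libraries, so it passed the filter through the libraries in which it was high. The part of the endothelial markers in the type IV values was not tested.

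Col4a5, a chain of specialised basement membranes, was low, at 3.54 to 3.85 FPKM in control, 2.84 to 3.14 with IL-1β and 3.00 to 3.08 in co-culture libraries. It was lower with IL-1β (log2 difference -0.21 ± 0.059, adjusted p = 0.0151), a call that ended without control replicate 3 (adjusted p = 0.0593) or IL-1β replicate 1 (adjusted p = 0.0545). It was also lower in co-culture than in control (-0.20 ± 0.059, adjusted p = 0.0241), a call that ended without control replicate 3 or co-culture replicate 2 or 3 (adjusted p between 0.0602 and 0.0880). Co-culture and IL-1β libraries overlapped, and their difference of 0.01 (95% interval -0.13 to 0.14) changed sign under median-of-ratios scaling.

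The chains of type VIII parted. Col8a1 measured 22.0, 20.7 and 21.3 FPKM in control, 30.3, 32.3 and 31.8 with IL-1β and 29.2, 29.6 and 29.3 in co-culture libraries. Col8a2, with which it can share a lattice in the cornea and vessel wall, measured 67.1, 66.1 and 67.6 FPKM, then 37.6, 37.5 and 37.7, then 42.55, 41.9 and 40.4. Col8a1 was thus lowest in control and Col8a2 highest in control. With IL-1β Col8a1 rose 1.48-fold (log2 difference 0.54 ± 0.036, adjusted p = 1.03e-06) and Col8a2 fell 1.78-fold (-0.82 ± 0.029, adjusted p = 8.25e-09). In co-culture against IL-1β Col8a2 was slightly higher (0.14 ± 0.029, adjusted p = 0.00609). Col8a1 differed there by -0.10, with a 95% interval of -0.18 to -0.02, and did not pass (adjusted p = 0.0833), except under median-of-ratios scaling (adjusted p = 0.0479). Col10a1, the other short-chain collagen, stayed between 0.01 and 0.1 FPKM.

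Col7a1, the collagen of anchoring fibrils, was low throughout. It measured 0.73, 0.69 and 0.77 FPKM in control, 2.09, 2.02 and 2.28 with IL-1β and 1.8, 1.5 and 1.7 in co-culture libraries. Its 3 groups did not overlap. Its mean was 2.92-fold higher with IL-1β than in control and 2.28-fold higher in co-culture than in control. Since it passed the filter only through those groups, it was read from the fit with no filter, in which the differences from control were 0.85 ± 0.062 and 0.62 ± 0.062 on the log2(FPKM + 1) scale, which compresses differences of low genes (adjusted p = 1.19e-05 and 0.000174). Co-culture against IL-1β gave -0.23 and lay near the threshold, with an adjusted p of 0.0426 with no filter and 0.0532 with the filter (0.0147 with no trend and 0.0478 under median-of-ratios scaling).

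The tested FACIT chains all fell with IL-1β. Col12a1, which decorates type I fibrils, went from 44.4 ± 1.99 to 22.6 ± 0.427 FPKM and stood at 28.2 ± 1.09 in co-culture. Col16a1 went from 40.3 ± 0.0681 to 23.7 ± 0.0493 and 26.3 ± 0.704, and Col14a1 from 21.05 ± 0.613 to 13.2 ± 0.158 and 14.7 ± 0.592. The log2 differences with IL-1β were -0.94, -0.74 and -0.64 (adjusted p = 4.69e-08, 2.4e-08 and 7.29e-07). In co-culture against IL-1β they were 0.31, 0.15 and 0.15 (adjusted p = 0.000679, 0.00696 and 0.0264). The last, that of Col14a1, lost its call without any 1 IL-1β library or without co-culture replicate 1 (adjusted p between 0.0567 and 0.0763), and also with only the 6 libraries compared (adjusted p = 0.0548). The FACIT chains Col19a1, Col20a1 and Col22a1 were among the untested chains.

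The multiplexins fell with IL-1β. Col18a1, whose end holds the endostatin fragment, measured 20.6, 21.1 and 21.1 FPKM in control, 16.1, 16.45 and 16.1 with IL-1β and 15, 13.7 and 12.95 in co-culture libraries. Its groups were separate and the co-culture libraries were the lowest. It fell by 0.35 ± 0.049 on the log2 scale with IL-1β (adjusted p = 0.000244) and was lower again in co-culture than with IL-1β alone (-0.21 ± 0.049, adjusted p = 0.0126). Col15a1 measured 18.2, 21.3 and 21.8 FPKM, then 12.1, 10.4 and 12.9, then 12.35, 13.8 and 14.2. It fell with IL-1β (-0.74 ± 0.088, adjusted p = 7.59e-05). Its IL-1β and co-culture libraries overlapped, and their difference of 0.17, with a 95% interval of -0.02 to 0.37, did not pass (adjusted p = 0.197). Whether Col15a1 and Col18a1 differed in their response was not tested.

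Sums by class put these chains in proportion. The 8 fibrillar chains summed to 44.9 ± 1.37% of their control level with IL-1β and 52.9 ± 1.59% in co-culture, and the 5 type VI chains to 39.3 ± 0.611% and 52.1 ± 1.55%. The FACIT chains stood at 56.4 ± 0.549% and 65.6 ± 1.71%, the multiplexins at 67.8 ± 2.68% and 66.0 ± 0.486%, and the short-chain collagens at 78.3 ± 1.16% and 80.5 ± 1.21%. The 6 type IV chains stood at 125 ± 2.43% with IL-1β and 102 ± 0.925% in co-culture. Fibrillar chains made up 64.6% of the summed FPKM in control, 64.4% with IL-1β and 63.3% in co-culture libraries. Type VI took a share that went from 30.7 ± 0.357% in control to 26.8 ± 0.260% with IL-1β and 29.7 ± 0.0264% in co-culture libraries, and that of type IV from 1.36 ± 0.0332% to 3.77 ± 0.106% and 2.58 ± 0.0562%.

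**Figure D4:**
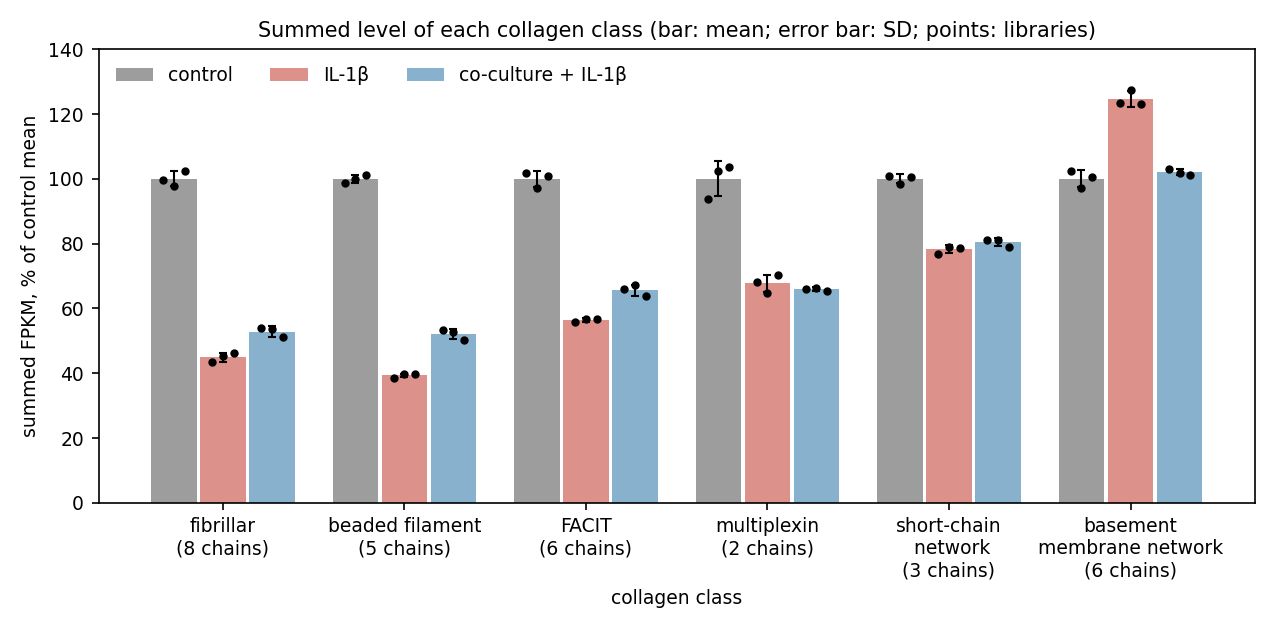
Summed FPKM of 6 collagen classes as a percentage of the control mean, with bars for the mean, error bars for the SD and 1 point for each of 3 libraries per group; the single chain Col7a1 and the classes near 0 are left out. The type IV bar for IL-1β stands at 125% of control and the type VI bar at 39.3%.

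Ratios of chains within a library do not depend on the scaling between libraries, and 7 were compared in 21 tests. They pair chains of the same type, except for Col3a1/Col1a1, which sets type III against type I. Since 3 against 3 libraries cannot give an exact permutation p below 0.1, every comparison without overlap has p = 0.1 (0.124 after Benjamini-Hochberg adjustment), and 17 of the 21 had no overlap. How often ratios of other gene pairs would separate in this way was not counted, so that count has no background beside it. The tests also share chains and libraries. Col8a1/Col8a2 shifted most, from 0.319 ± 0.00803 in control to 0.838 ± 0.0276 with IL-1β and 0.706 ± 0.0197 in co-culture libraries, and was separate in all 3 comparisons. Col3a1/Col1a1 went from 0.665 ± 0.0121 to 0.492 ± 0.0103 and 0.619 ± 0.0133, and Col6a3/Col6a1 from 0.122 ± 0.00324 to 0.0917 ± 0.00164 and 0.111 ± 0.00445, also separate throughout. In both, the co-culture libraries lay between the IL-1β and the control libraries.

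The other ratios shifted less. Col4a1/Col4a2 was 1.18 ± 0.0252 in control, 1.35 ± 0.0132 with IL-1β and 1.34 ± 0.0263 in co-culture libraries, where the last 2 groups overlapped (exact permutation p = 0.6). Col1a1/Col1a2 was 4.51 ± 0.238, 4.02 ± 0.211 and 4.04 ± 0.141 (exact p = 0.9 between the last 2 groups), and its lowest control library (4.23) lay just above its highest IL-1β library (4.21). Col5a1/Col5a2 was 0.389 ± 0.00734, 0.334 ± 0.00431 and 0.341 ± 0.00547 (exact p = 0.3). Col6a1/Col6a2 moved little, from 1.16 ± 0.00986 to 1.07 ± 0.0139 and 1.13 ± 0.0288, and its co-culture libraries overlapped the control libraries (exact p = 0.2).

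**Figure D5:**
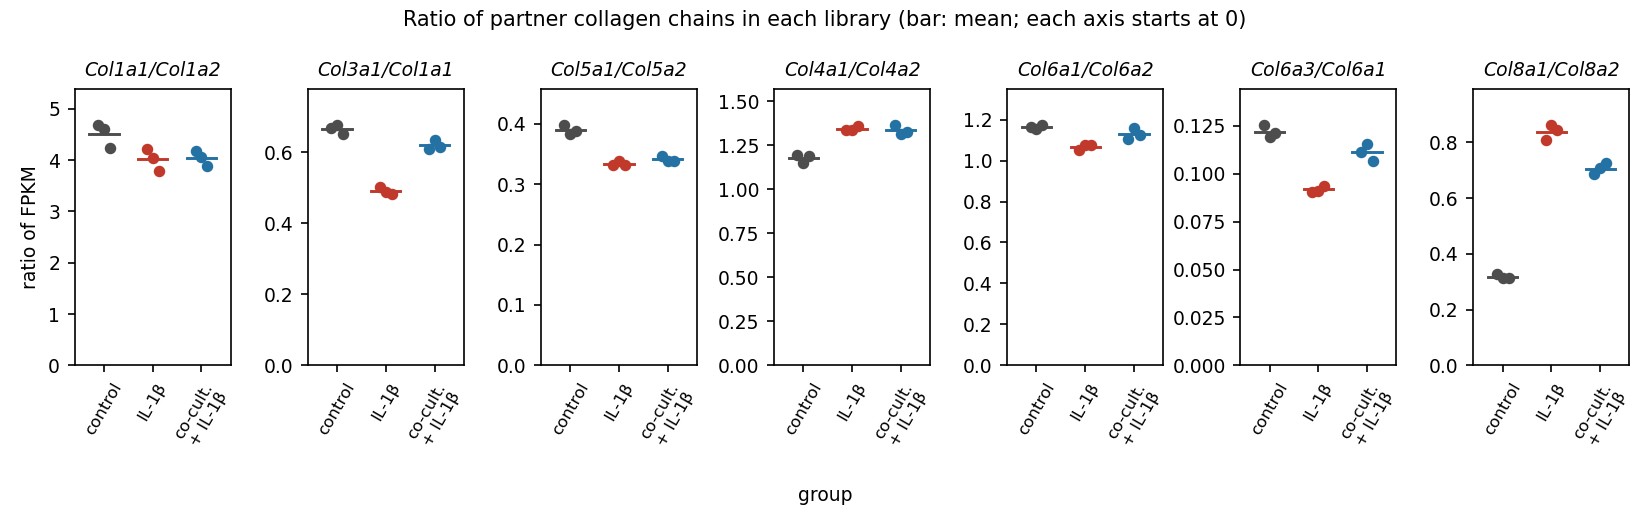
Ratio of FPKM of paired chains in each library (axes start at 0, bar at the group mean, 3 libraries per group). All pairs are of the same type except Col3a1/Col1a1. The Col8a1/Col8a2 points lie at 0.313 to 0.328 in control and 0.808 to 0.862 in IL-1β libraries; Col4a1/Col4a2 separates control from both other groups, which overlap.

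Genes that make, process and bind collagen were counted from lists set beside the chains. Over all tested genes 26.5% rose and 20.2% fell with IL-1β, 46.7% in all, and 11.9% rose and 10.1% fell in co-culture against IL-1β, 22.0% in all. Of 15 enzymes that hydroxylate and glycosylate collagen, 10 fell and 4 rose with IL-1β (median log2 difference -0.26). Colgalt2, among those that fell, was below 1 FPKM in some libraries. In co-culture against IL-1β 2 fell and 0 rose. That is a smaller share than the 22.0% of all tested genes called in either direction, but a larger one than the 10.1% that fell. Those that rose with IL-1β included P4ha2, a prolyl hydroxylase subunit (114 ± 1.35 to 201 ± 3.83 FPKM, adjusted p = 6.21e-09), and its partner P4hb (831 ± 6.24 to 1049.6 ± 8.72, adjusted p = 1.77e-06). In co-culture against IL-1β they fell, to 144 ± 3.53 and 882 ± 19.7 FPKM (adjusted p = 2.47e-06 and 7.32e-05). Of 10 folding and export genes, 8 fell and 0 rose with IL-1β, among them the collagen chaperone Serpinh1 (1965 ± 39.3 to 1346 ± 13.8 FPKM, adjusted p = 4.91e-07) and the collagen-binding protein Sparc (2427 ± 25.4 to 1680.5 ± 18.4, adjusted p = 2.02e-07). In co-culture 1 of the 10, Sec23a, rose and 0 fell, again below the share over all tested genes.

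Of 6 genes for removal of the propeptides, 2 rose and 2 fell with IL-1β, and 1, Adamts2, fell in co-culture against IL-1β. That 1 gene is a larger share than the 10.1% of all tested genes that fell there. It is a smaller share than the 22.0% called in either direction. The enhancer of propeptide cleavage, Pcolce, fell with IL-1β from 432 ± 8.43 to 338 ± 4.51 FPKM (adjusted p = 1.04e-05). The protease gene Adamts14 rose from 1.83 ± 0.172 to 2.56 ± 0.0764 (adjusted p = 0.00261). Of 6 crosslinking enzymes, 4 lysyl oxidase relatives (Loxl1, Loxl2, Loxl3 and Loxl4) fell and Lox and Tgm2 rose with IL-1β. Tgm2 passed the filter only through the groups in which it was high. Loxl3 went from 209 ± 1.16 to 66.8 ± 2.82 FPKM (adjusted p = 2.42e-09) and Loxl4 from 32.8 ± 1.57 to 10.7 ± 0.0252 (adjusted p = 1.9e-09). In co-culture 3 of the 6 rose, Loxl3 to 96.6 ± 6.76 and Loxl4 to 14.0 ± 0.567 FPKM (adjusted p = 5.83e-05 and 0.000342), and Lox and Tgm2 fell.

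Of 7 tested collagen receptors, 3 rose and 3 fell with IL-1β, and 3 rose and 2 fell in co-culture against IL-1β. The integrin gene Itga2 rose from 1.58 ± 0.367 to 10.96 ± 0.168 FPKM (adjusted p = 6.71e-08) and fell to 5.71 ± 0.728 in co-culture (adjusted p = 0.000362). Itga11, a receptor for fibrillar collagen, fell from 19.9 ± 0.315 to 10.02 ± 0.507 with IL-1β (adjusted p = 6.46e-08). Of 8 tested proteases that cleave collagen, 4 rose and 3 fell with IL-1β. Mmp9 and Mmp13 had the smallest p, with log2 differences of 6.06 and 4.32 (adjusted p = 5.95e-12 and 3.12e-10), but Mmp9, at 0.88 ± 0.0794 FPKM in control, passed the filter only through the other groups. In co-culture against IL-1β 4 of the 8 fell, with log2 differences of -1.67 for Mmp9 and -2.38 for Mmp13 (adjusted p = 2.31e-07 and 4.45e-07), and 1, Mmp14, a membrane-bound collagenase, rose.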

How the data were processed

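Poly(A) RNA of rat primary chondrocytes was sequenced, per the labels' protocols. Per the file headers, the deposited table gives FPKM for 17588 genes in each of 9 libraries, with values to 2 decimals. The submitters' processing notes name the mouse build GRCm38, although the samples are labelled rat. Aligner, counter, annotation and use of strand are not stated in the sources used here, so reads of overlapping or antisense genes may not have been told apart. All 37 chains matched rat genes by identifier in RefSeq's GRCr8 table, the source of the promoter windows. Which build the reads were aligned to remained unsettled.

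Groups came from the sample titles. The 11732 genes that reached 1 FPKM in 3 or more libraries were tested on log2(FPKM + 1) with limma 3.58.1 (R 4.3.3), a mean-variance trend, all 9 libraries, two-sided tests and Benjamini-Hochberg adjustment over all tested genes of a comparison, with calls at an adjusted p under 0.05. The test was also run on simulated data with independent noise and changes in a small part of the more abundant genes. Those data are unlike the present ones, so that run gives no measure of the calls here. No 2 libraries held identical values. Low values put the worth of 1 read at 0.959 to 1.07 of that in the first control library, from 16 to 31 genes a library. Only genes whose ratio already lay near 1 entered, so a library of clearly different depth could not have shown it. No counts were recovered, so no count test was run. Folds are ratios of mean FPKM. Ratios and sums were compared by exact permutation of libraries. Alternatives were other pseudocounts (0.1 and 0.5), filters, scalings, no trend, fewer libraries, a replicate block and leaving out each library.

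The chains, lists, classes and chain pairs were chosen with earlier results of these data known. Every tested chain is named, and of each pathway list the 2 genes with the smallest p in IL-1β against control, beside genes named because a count was 5 or fewer, which were chosen after their values were seen.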

Additional observations from a re-analysis of the deposited data

How the results depend on the processing

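Over the 21 tested chains, the 3 comparisons and the alternatives, 1148 of 1188 values kept their direction and their side of the threshold, 30 lost the call, 7 gained it and 3 changed sign. The 3 were Col4a5 in co-culture against IL-1β, at -0.0050 under median-of-ratios scaling and, leaving out 1 library at a time, between -0.0254 and 0.0289. Most of the lost and gained calls also fell in co-culture against IL-1β. Other filters, no trend, a replicate block and only the 6 libraries compared left the log2 difference unchanged by design. So did leaving out a library of the group not compared. Under these settings only the call could change, so they could not test the direction. With Col7a1 included, the number of chains called was 20 to 21, 13 to 16 and 19 to 20 when single libraries were left out, and the number lower in co-culture against IL-1β was 5 under median-of-ratios scaling, where Col7a1 and Col8a1 passed. With no filter, Col24a1 was called lower and Col25a1 and Col19a1 higher with IL-1β (adjusted p = 0.0111, 0.00862 and 0.00498). The summed level of all chains with IL-1β was 43.0% of control with a common sum and 49.5% without Col1a1, Col1a2 and Col3a1. In co-culture it was 51.6% with a common sum, 52.4% under median-of-ratios scaling and 59.9% without those chains. With 1 added to each FPKM, Col6a3/Col6a1 was 0.0939 with IL-1β and Col8a1/Col8a2 was 0.329 in control libraries. Over all tested genes 56.7% of the calls with IL-1β were higher as deposited, 41.4% with a common sum, 40.7% after quantile normalization and 49.9% under median-of-ratios scaling. For co-culture against control 64.2% were higher as deposited and 43.4%, 44.1% and 49.8% under the same scalings. These moved the median of all genes by less than 0.1. The causes were not tested. Same-numbered libraries did not deviate together (correlations of -0.0907 to 0.0855 over 9 pairs), and with a replicate block 21, 15 and 20 chains were called; the chain lost was Col1a1 in co-culture against IL-1β (adjusted p = 0.0590). The absolute depth is unknown, and the chains below 1 FPKM are limited by it.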
